A study of Mus musculus with 2 samples.

Results

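Checkpoint receptors and the CD28 family set how strongly a lymphocyte answers its other signals. CD28 and ICOS, which share a fold, and CD27, a TNF receptor family member, pass costimulatory signals through kinases and TRAF adaptors. PD-1 (Pdcd1), CTLA-4 (Ctla4), TIGIT (Tigit), LAG-3 (Lag3), TIM-3 (Havcr2) and KLRG1 (Klrg1) restrain activation, several of them through phosphatases that they recruit to the membrane. On type 2 innate lymphoid cells (ILC2s), tissue lymphocytes that release type 2 cytokines, ICOS is a standing surface protein that pairs with its ligand on neighbouring cells, PD-1 has been described as a brake, and KLRG1 marks a mature or inflammatory form. The 9 genes were taken as the rows of the expression matrix that carry these symbols, 9 of 32285 genes in all, and each symbol matched 1 row. The choice was made by symbol, with earlier results of these data known.

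The cells came from wild-type mouse fetuses at gestation day 18. Their mothers, otherwise untreated, were given dexamethasone (DEX), a glucocorticoid drug, at 1.3 µg/ml in the drinking water from gestation day 12, or phosphate-buffered saline (PBS) in its place. The 2 DEX litters, DEX-1 and DEX-2, pooled the lungs of 8 and 9 fetuses and the 2 PBS litters, PBS-1 and PBS-2, those of 5 and 8, and live CD45+ Lin- ST2+ cells were sorted, ST2 being the IL-33 receptor. Each litter carried its own hashtag antibody and all went into 1 pool, from which 5′ RNA and hashtag libraries were read. The litter, not the cell, is the replicate here, and DEX reached the fetus only through the mother, so a direct action on the fetal cell and an action through mother or placenta cannot be told apart.

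Of 10648 barcodes, all distinct, 10409 passed the filters and 7268 carried a single hashtag, between 1737 and 1890 per litter. Clusters were named from marker lists, and 2048 cells were ILC2-like: 545 and 447 from the DEX litters, 486 and 570 from the PBS litters, with 3792001 to 5190869 unique molecular identifiers (UMIs) per litter. All 10 ILC2 markers were found in at least 10% of them. The sort also held 3222 basophil or mast-like cells and smaller classes, so the label ILC2 does not describe every cell in the matrix. Free RNA was present: a UMI of Sftpc, the surfactant gene of alveolar epithelium, was found in 39.1% of ILC2-like cells after every cell was thinned to 2000 UMIs. Of 8 T cell markers, Cd3g was seen in 85.9% of ILC2-like cells and Cd3e in 18.2%, while 3 of the 8, among them Cd4 and Cd8b1, were under 1%. The summed level of that list was 561 and 483 counts per 1000000 UMIs (CPM) in the DEX litters and 535 and 537 CPM in the PBS litters. The summed level of 8 natural killer cell markers was 174 and 69.1 CPM against 108 and 41.4 CPM, most of it Gzma (91.7 CPM over all ILC2-like cells).

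The genes lie on 4 chromosomes of GRCm38, all annotated as protein coding. Cd28 (chr1:60716800-60773359), Ctla4 (chr1:60887000-60915832) and Icos (chr1:60977927-61000320) are neighbours on the plus strand, with 113640 bases from the end of Cd28 to the start of Ctla4 and 62094 bases from the end of Ctla4 to the start of Icos. Pdcd1 lies far from them on the minus strand (chr1:94038305-94052553). Klrg1 (chr6:122270596-122282882), Lag3 (chr6:124904361-124911705) and Cd27 (chr6:125232622-125237010) share a chromosome, Havcr2 is at chr11:46454935-46481255 and Tigit at chr16:43648867-43664146. Promoter sequence from RefSeq (GRCm38.p6) was found for 5 of the 9, and the 250 bases before the start are shown for Pdcd1 and Cd27, the 2 receptors that passed the DEX test below. Both genes are on the minus strand and are read 5′ to 3′ in the direction of transcription. Capitals mark the glucocorticoid receptor half-site letters AGAACA or their reverse complement TGTTCT.
Pdcd1, chr1:94052554-94052803: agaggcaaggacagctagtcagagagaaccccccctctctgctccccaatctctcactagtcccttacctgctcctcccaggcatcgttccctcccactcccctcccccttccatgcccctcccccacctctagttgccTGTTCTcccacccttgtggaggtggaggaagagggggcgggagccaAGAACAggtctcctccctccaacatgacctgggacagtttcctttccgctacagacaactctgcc
Cd27, chr6:125237028-125237277: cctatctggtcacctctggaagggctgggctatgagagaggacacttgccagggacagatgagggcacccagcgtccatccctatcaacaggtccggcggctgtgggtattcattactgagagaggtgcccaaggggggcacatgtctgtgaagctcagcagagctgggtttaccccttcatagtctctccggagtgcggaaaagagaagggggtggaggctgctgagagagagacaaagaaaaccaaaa
The Pdcd1 window held 2 such matches, 111 and 65 bases before the start, and the Cd27 window held none. Over all 27025 promoters of the table, 16.2% held at least 1 match on either strand in the same 250 bases and 1.84% held 2 or more. Of the other letters searched on both strands, a GATA motif (AGATAA or TTATCT, in 10.3% of promoters) was found once in the Tigit window, and an NFAT core (TGGAAA or TTTCCA, in 18.7%) once in the Ctla4 window. The Havcr2 window held none of the 3 motifs, and neither did that of Cd27. A match is a run of letters, not a bound site.

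Across the sorted classes, 7 of the 9 receptors were found in a higher share of ILC2-like cells than of any other named class, and Lag3 and Havcr2 were found mainly elsewhere. Shares are compared after thinning to 2000 UMIs, which left out 18 ILC2-like cells, 254 basophil or mast-like cells and 4 epithelial-like cells. Epithelial-like cells, which should lack these genes, serve as a guide to the free RNA background. Median depth was 7242 UMIs in ILC2-like cells and 17435 UMIs in epithelial-like cells. Of the ILC2-like states described below, state 0 (median 14377 UMIs) had a thinned Sftpc share of 24.5%. State 4 (5374 UMIs) had 48.5%. A deeper class can thus show less free RNA after thinning, and the epithelial-like share may understate the background of shallower classes. A 5′ UMI counts 1 molecule whatever the gene's length, but levels of different genes are not ranked here, since capture can differ between transcripts.

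Icos was found in 66.3% of thinned ILC2-like cells (92.2% unthinned, 95% Wilson interval 91.0 to 93.3%) and in 2.49% of epithelial-like cells. Its litter levels in ILC2-like cells were 660, 715, 577 and 622 CPM for DEX-1, DEX-2, PBS-1 and PBS-2, the order used throughout, a mean of 643 ± 58.7 CPM (SD, n = 4 litters). In basophil or mast-like cells the same gene stood at 6.14 ± 2.16 CPM. Cd28 was found in 1.87% of thinned ILC2-like cells and in none of 442 thinned epithelial-like cells, which allows a share with a UMI at that depth of up to 0.679%. Unthinned, 4 of 446 epithelial-like cells (0.897%) and 6.84% of ILC2-like cells had one. ILC2-like cells held 12.3 ± 6.17 CPM of it and basophil or mast-like cells 0.206 ± 0.160 CPM. Cd27 was found in 10.1% of thinned ILC2-like cells against 0.452% of epithelial-like cells, at 50.1 ± 10.3 CPM.

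Of the inhibitory receptors, Pdcd1 was found in 8.23% of thinned ILC2-like cells (20.4% unthinned) against 0.452% of epithelial-like cells. Ctla4 was found in 2.46% against 0.226%, and Klrg1 in 1.53% against none of the epithelial-like cells. Tigit was found in 0.788% of thinned ILC2-like cells, which rests on 74 UMIs in all 2048 cells. In macrophage or monocyte-like cells Pdcd1, Klrg1, Tigit, Cd27 and Lag3 had no UMI in 250 cells, which allows a share of up to 1.2% for each. B-like cells had none of Pdcd1, Klrg1, Tigit, Cd27, Cd28 or Lag3 in 199 cells, which allows up to 1.51%. None of these shares was corrected for free RNA.

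Lag3, which binds MHC class II, had 3 UMIs in all ILC2-like cells and 351 in basophil or mast-like cells. Its shares after thinning were 0 of 2030 ILC2-like cells, which allows up to 0.148%, and 2.29% of basophil or mast-like cells. The mast-like levels were 14.6, 13.6, 10.0 and 12.9 CPM. Havcr2, a receptor of galectin-9 and phosphatidylserine, was found in 0.296% of thinned ILC2-like cells, below the 0.679% of epithelial-like cells and thus at background. It was found in 3.94% of basophil or mast-like cells and 4.15% of macrophage or monocyte-like cells, at 18.9 ± 3.09 and 21.8 ± 4.80 CPM. Lag3 was also found in 2.06% of 194 thinned mesenchymal-like cells, and in none of the thinned macrophage or monocyte-like, B-like, endothelial-like or epithelial-like cells.

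**Figure D1:**
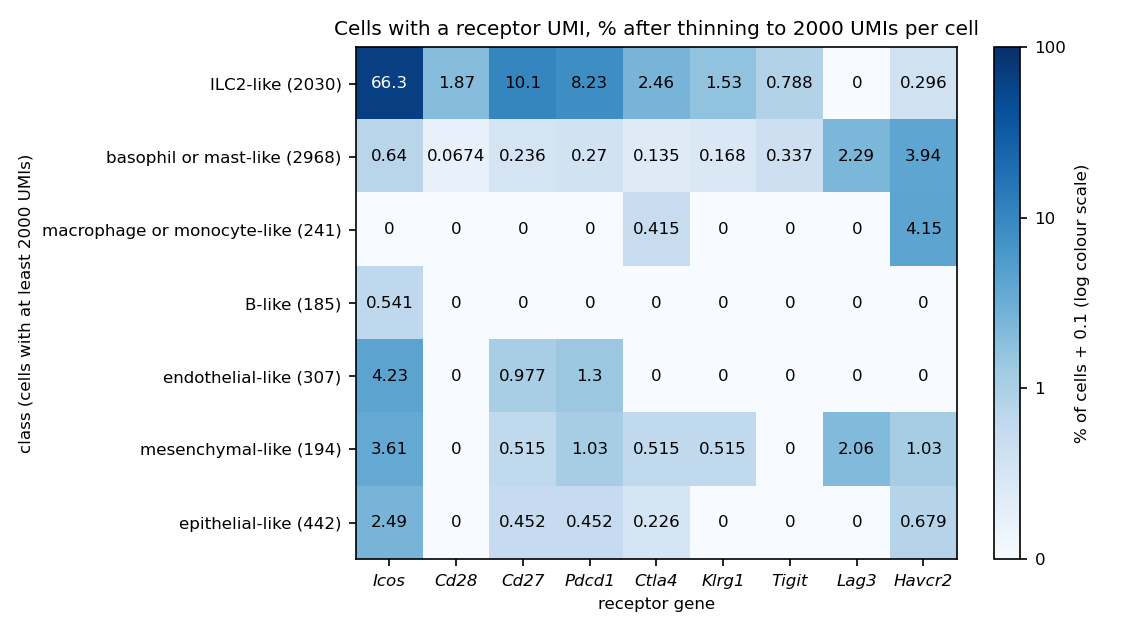
Share of cells with a UMI of each receptor after every cell was thinned to 2000 UMIs, as a heat map of 7 named classes (rows, number of cells in parentheses) by 9 receptors (columns); the printed number is the percentage and the colour is on a log scale. Icos reached 66.3% of ILC2-like cells, while Lag3 (2.29%) and Havcr2 (3.94%) stood out in basophil or mast-like cells.

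Within the basophil or mast-like class the unthinned shares of the receptors differed between clusters. A cluster of 414 cells led by Gzmb, Scin and Car1 held Lag3 in 22.5% of its cells, Icos in 17.9%, Cd27 in 7.25% and Pdcd1 in 5.31%, at a median of 15820 UMIs per cell. A cluster of 978 cells led by Syngr1, Cma1 and Mcpt4 held Lag3 in 1.94%, at a median of 3787.5 UMIs. Depth moves with this difference. These shares were not corrected for depth or free RNA, and the part of either was not tested. Outside the named classes, an unnamed cluster of 227 cells led by Prtn3, Mpo and Car1 held Cd27 in 17.6% of cells, at a median of 23732 UMIs.

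ILC2-like cells were divided into states with the receptors kept out of the clustering genes. State 0 (393 cells) was led by mitotic genes such as Ube2c and Birc5, and state 1 (265 cells) by DNA replication genes such as Ung and Mcm5. State 2 (351 cells) was led by Cd7, Ms4a4b and Lgals3, state 3 (652 cells) by Ctla2a, Ctla2b, Epcam and Calca, state 4 (211 cells) by Atp4a, Pla2g7, Hdc and Gata1, and state 5 (168 cells) by Il5, Bpnt1 and Akap12. A further group of 8 cells led by mesenchymal genes was left aside. Median depth ran from 5374 UMIs in state 4 to 14377 UMIs in state 0, so levels are given as CPM of the summed UMIs. Since states were drawn from the same cells, the levels below describe the states and carry no test.

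Cd27, Ctla4 and Cd28 stood highest in state 2. Cd27, whose ligand CD70 sits on activated antigen-presenting cells, measured 128, 126, 129 and 131 CPM there, a mean of 129 ± 2.18 CPM (SD, n = 4). That range did not overlap with the next state, state 3 at 42.7 ± 12.6 CPM, while states 3, 1, 0, 5 and 4 each overlapped their neighbour in the order, down to 28.4 ± 3.16 CPM in state 4. Thinned shares were 24.6% of state 2 cells and 6.31 to 7.55% of the other 5 states. Ctla4, which takes CD80 and CD86 away from CD28, measured 40.8, 33.8, 39.3 and 30.1 CPM in state 2. State 1 followed at 20.4 ± 7.95 CPM and overlapped with it, and state 4 was lowest at 2.33 ± 1.59 CPM.

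Cd28 measured 28.4, 39.0, 34.7 and 34.4 CPM in state 2. State 5 was next at 15.6 ± 11.5 CPM, and its highest litter, 31.9 CPM, reached into the range of state 2. In state 4 a single Cd28 UMI was counted over 211 cells. The Cd7-led state was thus the one in which Cd27, Cd28 and Ctla4 had their highest mean, although only for Cd27 was it clear of every other state. The summed level of the natural killer cell markers in state 2 was 634 CPM in DEX-1 and 758 CPM in PBS-1 but 20.8 and 21.5 CPM in DEX-2 and PBS-2. Most of that sum was Gzma, at 333 CPM over the state, with Prf1 next at 8.24 CPM. No marker of that list was found in 10% of state 2 cells. In state 4 the sum was 298, 431, 55.8 and 125 CPM. Within state 2, DEX-2 and PBS-2, with few natural killer cell transcripts, had 126 and 131 CPM of Cd27. DEX-1 and PBS-1 had 128 and 129 CPM. In the same order Cd28 was at 39.0 and 34.4 against 28.4 and 34.7 CPM, and Ctla4 at 33.8 and 30.1 against 40.8 and 39.3 CPM. The part of the natural killer cell transcripts in these levels was not tested.

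Klrg1, an inhibitory receptor of cadherins, stood highest in state 4, at 34.6, 46.9, 21.3 and 25.6 CPM, a mean of 32.1 ± 11.3 CPM. Every litter of state 4 was above every litter of state 3, the next in order at 11.6 ± 3.37 CPM, and the order then ran through states 5, 1 and 2 to state 0 at 3.49 ± 1.81 CPM with each neighbour overlapping. The value rests on 37 UMIs in state 4, where 13.7% of cells had one. Icos had its lowest level in the same state, at 391, 410, 383 and 432 CPM, and state 0, the next above, began at 482 CPM. Some basophil or mast cell markers were also raised there. Hdc, a leading gene of the state, was found in 62.1% of its cells and 20.8% of all ILC2-like cells, and Cpa3 in 34.1 and 14.2%. Kit (75.4 and 76.6%) and Cma1 (16.1 and 14.2%) had similar shares, although Cma1 was at 130 against 31.9 CPM. Fcer1a and Mcpt8 had no UMI in state 4. Of 8 markers, 5 were found in at least 10% of state 4 cells and 4 over all ILC2-like cells. Their summed level was 1606, 2910, 932 and 1056 CPM against 388, 521, 397 and 391 CPM over all ILC2-like cells. The part of those transcripts in the Klrg1 and Icos levels was not tested.

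Icos was highest on average in state 5, at 711, 1187, 785 and 869 CPM, but this range overlapped with states 3, 2 and 1. Pdcd1 gave no clear order. Its means ran from 105 ± 64.0 CPM in state 4 to 40.8 ± 13.0 CPM in state 0, and every neighbouring pair overlapped. Its SD over litters was 53.4 CPM in state 3 and 64.0 CPM in state 4, and in state 3 the spread followed the treatment, as described below. Tigit and Havcr2 had at most 22 and 8 UMIs in a state and Lag3 at most 2, so their order is not resolved at this depth.

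**Figure D2:**
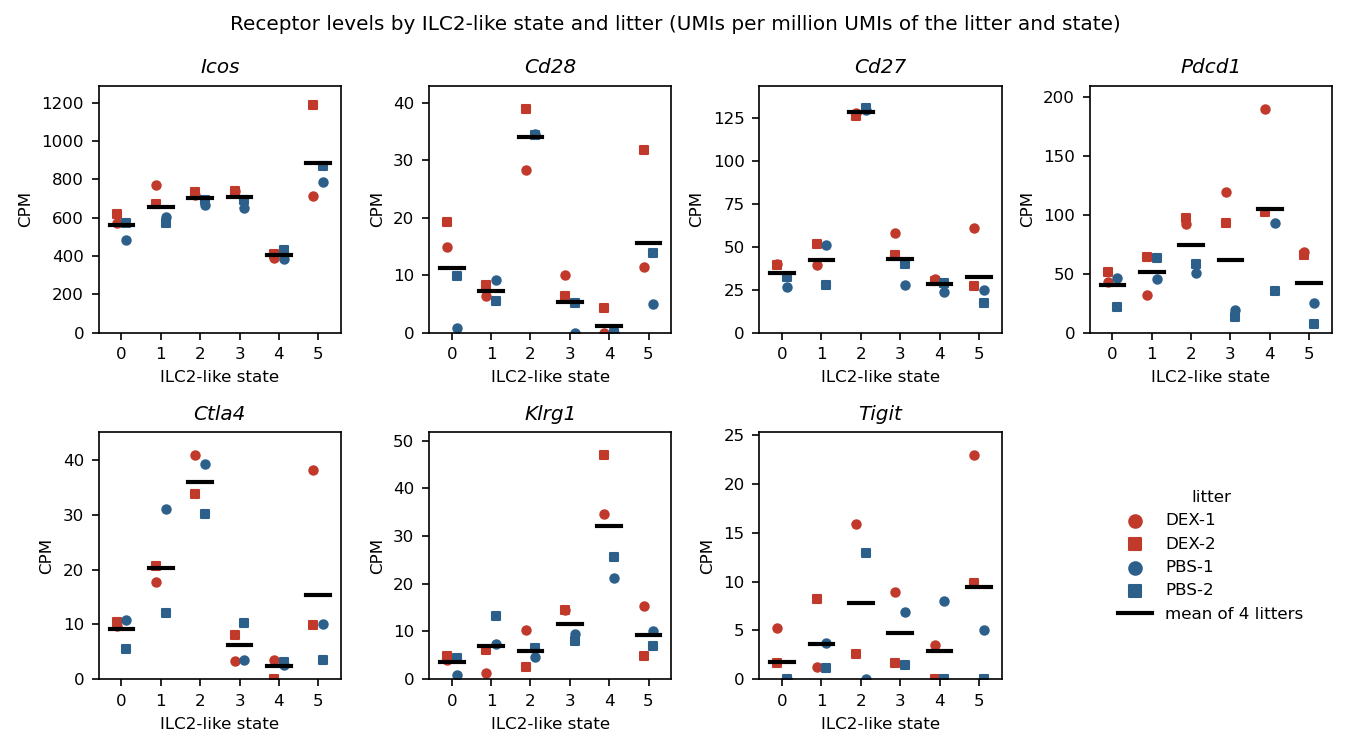
Receptor level in CPM (vertical axis, within litter and state) in the 6 ILC2-like states (horizontal axis) for 7 of the receptors, with 1 point per litter (red DEX, blue PBS; circle litter 1, square litter 2) and a line at the mean of 4 litters. Cd27 is set apart in state 2 (126 to 131 CPM), Klrg1 in state 4 (21.3 to 46.9 CPM), and Pdcd1 splits by treatment in state 3.

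DEX litters were then compared with PBS litters on UMIs summed per litter, with edgeR's quasi-likelihood test over all genes. In ILC2-like cells 10636 genes were tested, and 7 of the 9 receptors passed the filter on low counts. At an adjusted p under 0.05, 2 receptors were called, Pdcd1 and Cd27, both higher in DEX, where 2.23% of all genes tested were called and 1.02% were called higher. For 6 of the 7 receptors tested each DEX litter exceeded each PBS litter, an arrangement found in 20.7% of all genes tested. The median log2 fold change of the 7 was 0.52, beside -0.00092 over all genes. Nothing in the labels says more of the replicates than that each is a litter, so the p-values measure the spread between these 4 litters.

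Pdcd1 encodes PD-1, the receptor of PD-L1 and PD-L2. Its level was 75.8 and 73.6 CPM in the DEX litters and 42.04 and 30.1 CPM in the PBS litters, from 355, 279, 165 and 156 UMIs. The groups did not overlap, and the log2 fold change was 1.08 ± 0.13 (SE), a 2.11-fold difference, with an adjusted p of 0.000711 (edgeR). More cells carried the transcript: 25.7 and 28.4% of DEX cells and 15.6 and 13.0% of PBS cells, or 11.8 and 10.5% against 6.47 and 4.45% after thinning. The difference in thinned shares was 5.70 percentage points, with an exact permutation p of 0.333, the smallest that 2 litters against 2 allow. With each litter left out, which leaves 1 litter in a group, the log2 fold change was 0.84 to 1.31. Cells that had the transcript held 2.54 and 2.20 UMIs each in DEX and 2.17 and 2.11 in PBS. Pdcd1 is on the list of genes that the study itself picked as raised in these cells, so its direction is not independent evidence.

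Among the costimulators, Cd27 was 60.4 and 57.5 CPM in DEX and 41.3 and 41.2 CPM in PBS, without overlap, a log2 fold change of 0.52 ± 0.11 with an adjusted p of 0.0216 (edgeR). This call depended on the settings: it was lost without DEX-1 (0.51, adjusted p = 0.0828, edgeR) and in DESeq2 (0.52, adjusted p = 0.224). It was also lost when every litter gave equal numbers of cells of each state, where the log2 fold change was 0.26 (adjusted p = 0.415, edgeR). State 2, in which Cd27 was highest, supplied 121 and 105 of the DEX cells and 63 and 62 of the PBS cells. Within state 2 the log2 difference in Cd27 was -0.036 ± 0.16. In the other states tested it was 0.40 ± 0.21 (state 0), 0.27 ± 0.32 (state 1) and 0.62 ± 0.26 (state 3), none of them called.

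Cd28 measured 13.9 and 20.0 CPM in DEX and 5.61 and 9.63 CPM in PBS. Its log2 fold change, 1.10 ± 0.27, was near that of Pdcd1 in size, but it missed the threshold (adjusted p = 0.0548, edgeR). It passed in 8 of 21 alternatives, among them those without DEX-1 and without PBS-2, where it was 1.38 and 1.59. Within state 2, where Cd28 is highest, the log2 difference was -0.050 ± 0.33. In state 0, the other state in which it passed the filter, it was 14.99 and 19.2 against 0.834 and 9.88 CPM, at 1.44 ± 0.50 (adjusted p = 0.345, edgeR), from 0.78 without PBS-1 to 4.202 and called without PBS-2 (adjusted p = 0.00696, edgeR). Icos was 660 and 715 against 577 and 622 CPM, a log2 fold change of 0.20 ± 0.075 that did not pass (adjusted p = 0.252, edgeR).

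The other inhibitory receptors did not pass. Tigit was 8.11 and 3.43 CPM in DEX and 3.57 and 1.73 CPM in PBS, with DEX-2 below PBS-1, and a log2 fold change of 1.22 ± 0.46 (adjusted p = 0.261, edgeR). Single litters decided this value: it was called without DEX-2 (1.66) or PBS-1 (1.76). It fell to 0.45 (adjusted p = 0.870, edgeR) when DEX-1 was left out and to 0.74 (adjusted p = 0.590, edgeR) when PBS-2 was. Ctla4 was 16.9 and 15.6 CPM against 14.01 and 9.82 CPM, at 0.48 ± 0.21 (adjusted p = 0.359, edgeR). Leaving out PBS-1 gave 0.72, leaving out PBS-2 gave 0.23, and equal numbers of cells per state gave 0.0092. Klrg1 was 9.18 and 8.70 CPM against 7.13 and 8.48 CPM, at 0.19 ± 0.24 (adjusted p = 0.836, edgeR), and between 0.079 without PBS-1 and 0.34 without PBS-2. With equal numbers of cells per state it was 0.62 and in thinned cells 1.13, neither of them called. Lag3 with 2, 1, 0 and 0 UMIs and Havcr2 with 8, 9, 8 and 6 UMIs did not pass the filter, and no difference between the groups was detectable at this depth.

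**Figure D3:**
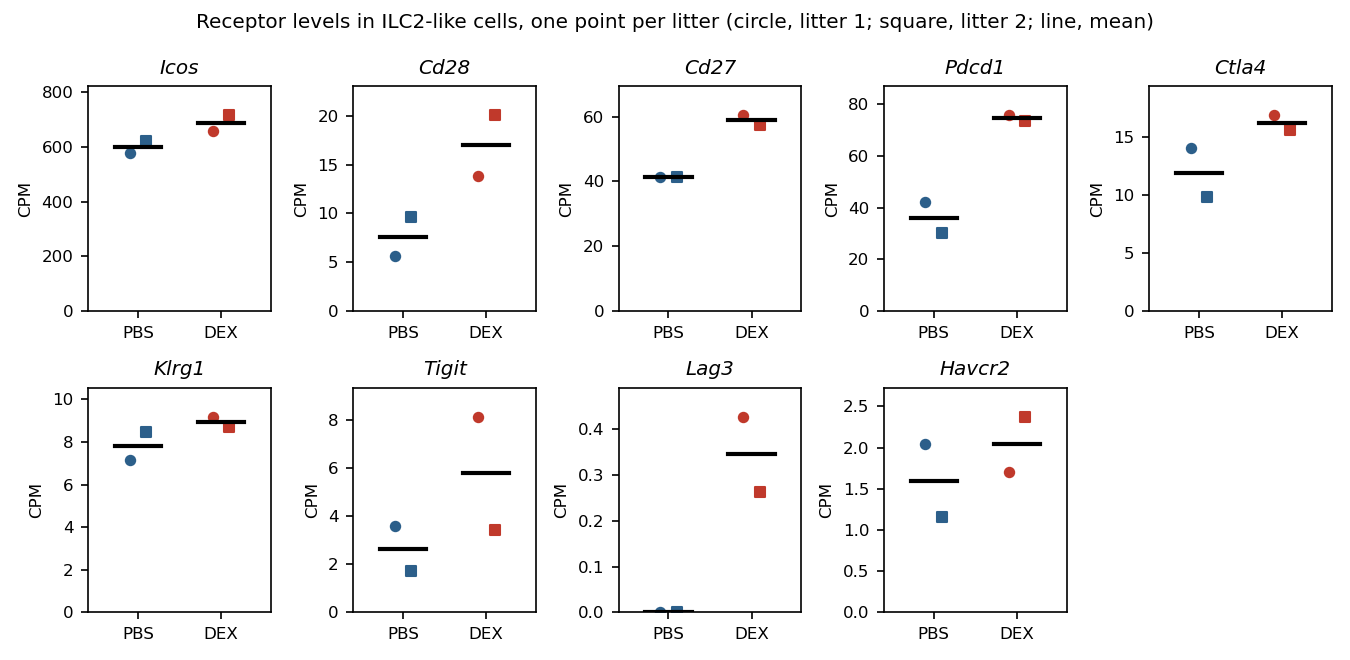
Level of each receptor in ILC2-like cells in CPM (vertical axis, starting at 0 and scaled per gene) for the PBS and DEX litters (circle litter 1, square litter 2) with a line at the group mean. The 2 groups are clear of each other for Pdcd1 (73.6 to 75.8 against 30.1 to 42.04 CPM) and Cd27, the receptors called. They are also clear for Icos, Cd28, Ctla4, Klrg1 and Lag3, the last on 3 UMIs, and overlap for Tigit and Havcr2.

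The Pdcd1 difference was largest in state 3, the Calca-expressing state. There it measured 120 and 93.3 CPM in DEX and 19.1 and 13.1 CPM in PBS, from 107, 58, 22 and 18 UMIs in 147, 101, 193 and 211 cells. The groups were far apart, with a log2 fold change of 2.76 ± 0.25, a 6.78-fold difference, and an adjusted p of 7.71e-06 (edgeR). Of the cells, 29.9 and 24.8% had a Pdcd1 UMI in DEX and 6.22 and 7.58% in PBS, or 15.1 and 11.9% against 2.09 and 1.93% after thinning. It was the only receptor called in any state, state 3 itself having 1.21% of 7862 genes called. With each litter left out, which leaves 1 litter in a group, its log2 fold change in state 3 was 2.51 to 3.02.

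The size of that value depended on where state 3 was bounded. In a clustering without the genes called between the groups, the best match of 721 cells, which also held 156 of the 168 cells of state 5, gave 2.71 (adjusted p = 8.42e-06, edgeR). Nearly the same selection, state 3 pooled with state 5, gave 2.63 (adjusted p = 2.45e-05, edgeR). At the coarser resolution of 0.3 the best match of 1089 cells, which also took in most of states 1 and 5, gave 1.49 (adjusted p = 0.00103, edgeR). At the finer resolution of 0.8 the best match kept 383 cells, 30 of them from DEX-2, and gave 59.7 and 5.50 against 16.9 and 11.7 CPM, a log2 fold change of 1.51 that was not called (adjusted p = 0.305, edgeR). At that resolution the best match of state 5 held 326 cells, of which 163 were from state 5. It had 109 and 123 cells of the DEX litters and 44 and 50 of the PBS litters. Pdcd1 there was at 173 and 128 against 45.9 and 14.8 CPM, at 2.38 (adjusted p = 0.00515, edgeR). Outside state 3 the ILC2-like cells together gave 0.66 (adjusted p = 0.0605, edgeR).

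In the other states Pdcd1 was not called. In state 5, the Il5-led state, it was 68.8 and 66.2 against 25.0 and 6.95 CPM, at 2.21 ± 0.52 (adjusted p = 0.0999, edgeR, where 0.0522% of genes were called). In state 4 it was 190 and 102 against 93.0 and 35.2 CPM, at 1.18 ± 0.38 (adjusted p = 0.340, edgeR, 0.4% called). In state 2 it was 91.9 and 97.4 against 50.9 and 58.0 CPM, at 0.79 ± 0.22 (adjusted p = 0.322). In state 2 edgeR called 0% of 6518 genes, with 393 at an unadjusted p under 0.05. With each litter left out the value in state 2 lay between 0.69 and 0.90. In state 5 it was 2.22 without DEX-1 and 2.20 without DEX-2. Otherwise the values of states 4 and 5 turned on single litters. Leaving out PBS-1 brought the call in states 4 and 5 (2.06 and 3.24), and leaving out DEX-2 brought it in state 4 (1.50). Without PBS-2 the values were 0.67 in state 4 and 1.44 in state 5, and DEX-1 left out gave 0.64 in state 4.

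The cycling states gave smaller values. In state 0 the log2 fold change of Pdcd1 was 0.54 ± 0.27, with litters at 43.0 and 51.3 against 46.7 and 21.96 CPM, and 0.682% of genes were called there. In state 1 it was -0.32 ± 0.31, with 31.6 and 63.9 against 45.6 and 63.7 CPM, and 0.0453% were called. The direction was not settled in either: state 0 ran from 0.0069 without PBS-2 to 1.10 without PBS-1, where it was called, and state 1 from -0.82 without DEX-2 to 0.19 without DEX-1. A test of the difference itself, added after these values were seen, asked whether the effect of DEX differed among the 6 states. Of 8044 genes 1 was called, 0.0124%, and it was Pdcd1 (adjusted p = 0.0462, edgeR). The call was lost without DEX-1 (adjusted p = 0.0985) and without PBS-2 (adjusted p = 0.153). Set against state 1, the effect in state 3 was larger by 3.15 ± 0.48 on the log2 scale. Pdcd1 was the only gene called of those tested (0.0124%, adjusted p = 0.00163, edgeR). States 1 and 3 had the lowest and the highest Pdcd1 value and were set against each other after these were seen. The p therefore cannot be read at face value. That call too was lost without DEX-1 (2.42) and without PBS-2 (2.50).

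**Figure D4:**
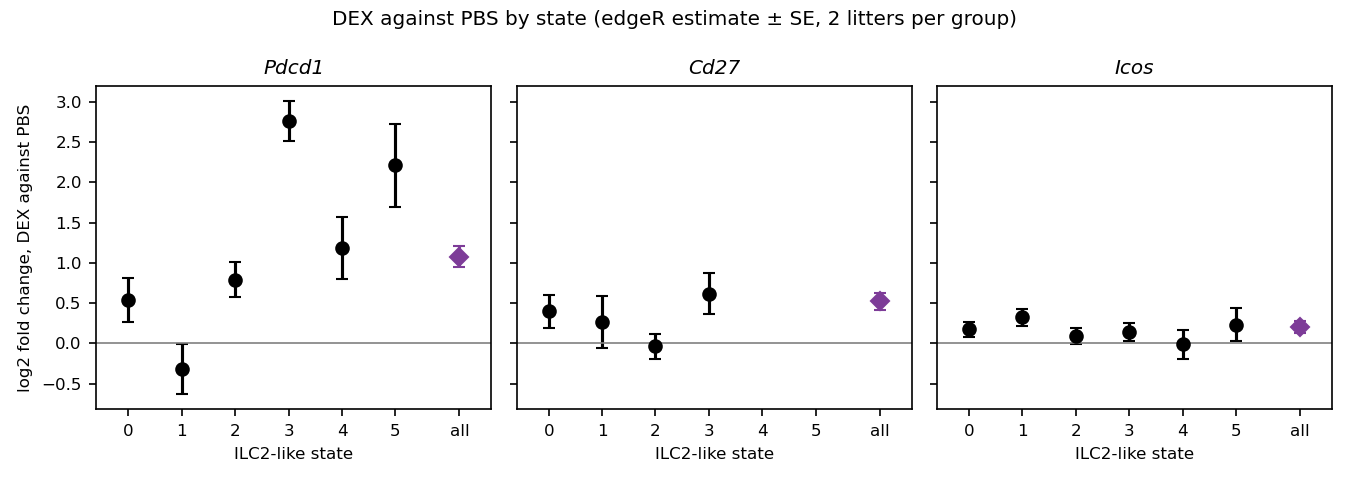
Log2 fold change of DEX against PBS (vertical axis, edgeR estimate with bars of ± 1 SE, 2 litters per group) in states 0 to 5 (horizontal axis, black) and in all ILC2-like cells (purple diamond), for receptors tested in several states. Pdcd1 rises to 2.76 in state 3, while Icos stays between -0.012 and 0.32 in every state. Cd27 is at -0.036 in state 2 and at 0.40, 0.27 and 0.62 in states 0, 1 and 3.

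Basophil or mast-like cells were the other class large enough to test. Of 11493 genes edgeR called 0%, with 446 at an unadjusted p under 0.05, and no receptor among them was called. Lag3 was at 14.6 and 13.6 against 10.0 and 12.9 CPM, with a log2 fold change of 0.31 ± 0.20, from 0.15 without PBS-1 to 0.52 without PBS-2. Havcr2 was at 22.2 and 20.1 against 18.3 and 14.9 CPM, 0.36 ± 0.17, from 0.24 without PBS-2 to 0.52 without PBS-1. Icos, near background in this class, was at 9.23 and 5.94 against 4.37 and 5.02 CPM. Pdcd1 did not pass the filter: it was at 8.26, 0.815, 0.810 and 1.41 CPM, high in DEX-1 alone, and was called only when DEX-2 was left out (2.88, adjusted p = 0.0134, edgeR). The test of the difference between the 2 classes called 0.0329% of 12162 genes and no receptor, with Pdcd1 at -0.75 ± 0.89 for ILC2-like minus mast-like cells. That value had no settled sign: it was 1.49 (adjusted p = 0.522, edgeR) without DEX-1 and -1.79 and called (adjusted p = 0.00701, edgeR) without DEX-2.

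Icos alone was found in 92.2% of unthinned ILC2-like cells, so a cell with at least 2 of the transcripts was mostly one with Icos and another. Before thinning 50.1% held at least 2 of the 9 receptors, 15.1% at least 3, 82 cells held none, and the most in a cell was 6. The share with at least 2 was 56.7 and 60.4% in the DEX litters and 41.4 and 43.2% in the PBS litters. After thinning it was 17.3 and 21.1% against 12.5 and 12.5%, with an overall share of 15.7%, and 1.53% of cells held at least 3. In both readings each DEX litter was above each PBS litter, and no test was run on it. The count includes Pdcd1 and Cd27, so it is not separate from their differences given above.

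Pairs were counted against the number expected from the single shares within each litter and each of 5 depth classes, as a description with no test. Of 36 pairs, 21 had at least 5 cells expected, and 13 of these were seen more often than expected. Ctla4 and Cd28, which bind the same ligands, were found together in 25 cells where 12.0 were expected, a ratio of 2.08, and above 1 in every litter. When expected numbers were also taken within state, the ratio was 1.56, with PBS-2 below 1. Pdcd1 and Cd28 were found together in 50 cells (35.7 expected, ratio 1.40, or 1.32 within state), and Cd27 and Cd28 in 67 cells (48.1 expected, 1.39, or 1.19 within state). Ctla4 and Cd27 went from 1.25 to 1.02 once state was taken into account.

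Pdcd1 and Cd27, the 2 receptors that passed the DEX test, were found together in 132 cells where 129 were expected, a ratio of 1.02. In thinned cells the ratio was 0.814 (14 cells, 17.2 expected). Klrg1 was found less often than expected with Ctla4 (4 cells, 8.82 expected, ratio 0.454) and with Cd28 (4 cells, 9.04 expected, ratio 0.442), which were low in its own state, and these ratios were 0.498 and 0.465 within state. These pairs rest on few cells. Pairs with Icos, which most cells carry, lay between 0.919 and 1.01.

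**Figure D5:**
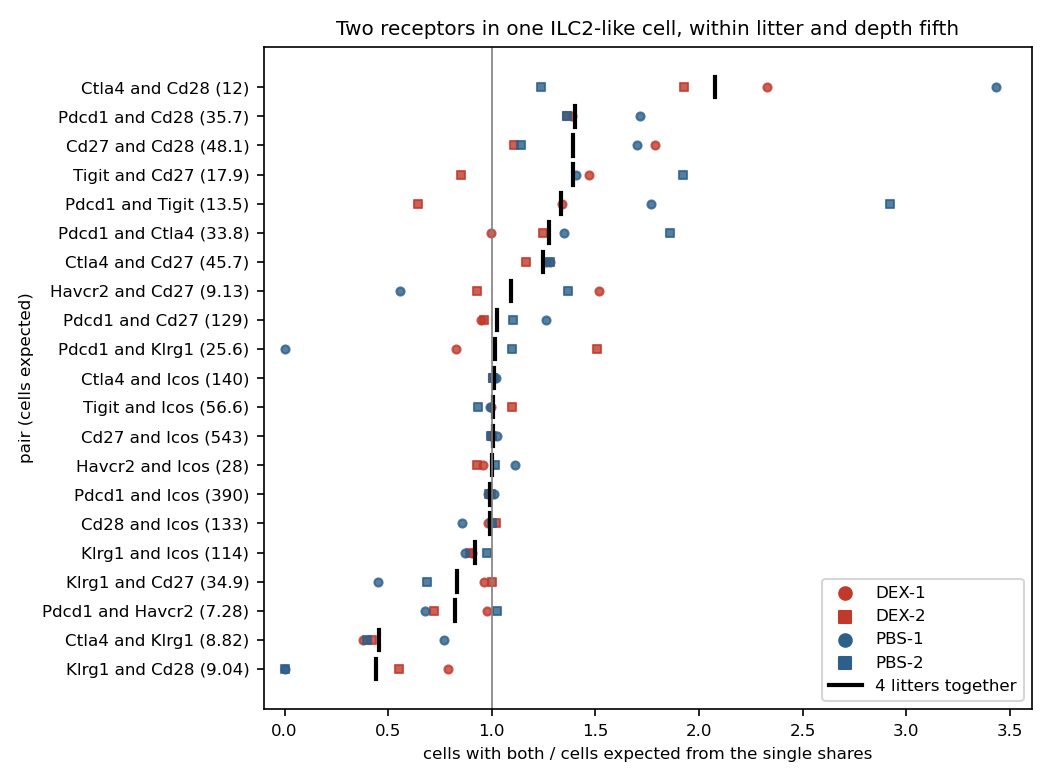
Number of ILC2-like cells with both receptors of a pair divided by the number expected from the single shares within litter and depth class (horizontal axis), for the 21 pairs with at least 5 cells expected (vertical axis, expected number in parentheses); points are litters, black lines all 4 litters. Ctla4 with Cd28 has the highest ratio, 2.08, and Klrg1 with Cd28 the lowest, 0.442.

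Receptors were also matched to the genes whose level ran most like theirs over 48 sums of litter by state or class, by Pearson r of log2(CPM + 1). These points share litters and libraries and carry no p. Icos ran closest to Cxcr6 (0.98), a chemokine receptor, and Tnfrsf25 (0.98), the receptor of TL1A. Cd27 ran closest to Thy1 (0.95) and Trbc2 (0.94), and Pdcd1 to Il7r and Cd3g (both 0.91). Cd28 ran closest to Il2rb (0.83), Klrg1 to Sox8 (0.89) and Ctla4 to Pgk1 (0.80). Over the 24 sums of ILC2-like states alone the closest genes were others: S1pr1 (0.85), which guides exit from tissue, and Rasa3 (0.85) for Cd27, Tmem176a (0.87) for Ctla4, Ets1 (0.83) and Rpl3 (0.84) for Cd28, and Dennd4c and Mef2d (both 0.73) for Pdcd1.

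The receptors were then read in cells with and without T cell receptor transcripts. Of thinned ILC2-like cells, 220 had a UMI of Cd3e, Cd3d or Trac and 1810 had none. Pdcd1 was found in 6.36% of the former and 8.45% of the latter, Cd27 in 10.9 and 10.1%, and Icos in 72.3 and 65.6%. Among cells without any UMI of 7 T cell genes, Cd3g included, only 59 to 62 remained per litter, and there Pdcd1 had a log2 fold change of 1.77 (adjusted p = 0.0919, edgeR) and Cd27 of 0.22. With Cd3g allowed, Pdcd1 was 1.09 (adjusted p = 0.000171, edgeR) and Cd27 0.55 (adjusted p = 0.0297, edgeR).

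The wider pathway was read in ILC2-like cells from gene lists. Of 14 ligands 5 were tested and none was called by edgeR. Lgals9, which encodes the TIM-3 ligand galectin-9, was at 240 and 239 against 303 and 274 CPM on the scale of the fit (log2 -0.27 ± 0.076). Pdcd1lg2, which encodes the PD-1 ligand PD-L2, was at 30.2 and 39.1 against 43.4 and 44.6 CPM (-0.36 ± 0.14), and Cd274, which encodes PD-L1, at 9.36 and 9.11 against 10.7 and 8.73 CPM. Among other coreceptors 7 of 13 in the matrix were tested and none was called. Cd200r1, an inhibitory receptor, was at 83.6 and 100 against 83.2 and 96.2 CPM, Cd96 at 35.1 and 37.2 against 36.8 and 37.6 CPM, Cd226 at 33.6 and 27.6 against 36.0 and 33.9 CPM, and Vsir at 23.6 and 18.2 against 23.3 and 23.1 CPM.

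Of 20 signalling genes below these receptors all 20 were tested and none was called, their median log2 fold change being -0.11, with 4 above 0. Sh2d2a (-0.11), Grb2 (-0.0058) and Grap2 (-0.23) were among the genes of that list with the highest levels. Of 16 regulators known from activated or exhausted T cells 13 were tested and 2 were called, both lower in DEX, where 1.21% of all genes tested were called lower. Nr4a2, an orphan nuclear receptor induced by antigen receptor signals, was at 346 and 337 CPM in DEX and 547 and 539 CPM in PBS, a log2 fold change of -0.67 ± 0.068 with an adjusted p of 0.000171 (edgeR). Maf, a transcription factor of type 2 lymphocytes, was at 52.3 and 48.2 against 73.6 and 67.9 CPM, -0.49 ± 0.10, with an adjusted p of 0.0267 (edgeR). The groups did not overlap for either gene. Tox, a factor that sustains PD-1 in exhausted T cells, was at 150 and 151 against 170 and 151 CPM (-0.087 ± 0.084). Of 8 T cell complex genes 5 were tested and none was called, and none of 16 cell cycle genes was called (median log2 fold change -0.14).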

How the data were processed

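The authors deposited 1 matrix, with a raw UMI count for each gene or hashtag (4 rows) in each barcode, made with Cell Ranger multi (Cell Ranger 7 and mm10 per the submitters' processing notes) from a 10x Genomics 5′ gene expression library and its hashtag library. For the aligner settings nothing was given in the sources used here. Barcodes with at least 200 genes and at most 5% mitochondrial UMIs were kept, the limits the study states. Litters were called with HTODemux (Seurat 5.3.0, quantile 0.99). Of the passing barcodes 736 with more than 1 hashtag were dropped as doublets and 2405 with none were not used. Scrublet marked 1 barcode at its own threshold and so did not work as a caller, and doublets within a litter remain. The hashtag rows were matched to litters by the antibody number. The legend that describes this experiment gives fewer mothers per group than the labels, which were followed.

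Cells were clustered with scanpy 1.11.5 (2000 variable genes, 20 components, 15 neighbours, Leiden resolution 0.5), with the receptors, the gene lists and the sorting marker left out of the variable genes. A class was named from marker lists, and a state was tested where it held at least 30 cells of every litter. UMIs were summed per litter and tested with edgeR 4.0.16 (R 4.3.3; TMM, filterByExpr, quasi-likelihood F-test, two-sided, Benjamini-Hochberg over all genes tested, called under 0.05). The SE of a log2 fold change was taken from the F statistic. CPM (counts per 1000000 UMIs) is relative to the litter's own total, except for the gene lists and the finer clusterings, where it is on the TMM scale. The study ranked single cells, which treats cells as replicates, and that test was not used. DESeq2 1.42.0, limma 3.58.1 and other filters were alternatives. In a litter of 3792001 to 5190869 ILC2-like UMIs, 3 counts are 0.582 to 0.804 CPM, and intervals and upper limits cover counting error only. The edgeR script was tested on simulated data. Positions come from GENCODE M21 (GRCm38).

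Named were the 9 receptors, the genes of each list that were called or otherwise up to 4 with the highest level, and the 2 genes whose level ran most like a receptor's. A few further genes (Tox, Cd274) were named after their values were seen. A gene that this rule names is not reported here. The receptors and the lists were chosen with earlier results of these data known.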

Additional observations from a re-analysis of the deposited data

Results flagged for a closer look

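The effect of DEX on Pdcd1 differed among the 6 ILC2-like states, by edgeR's test of state by treatment over any state, with an adjusted p of 0.0462. The log2 fold changes ran from -0.32 in state 1 to 2.76 in state 3, and Pdcd1 was the only gene of 8044 called. Both DEX litters were above both PBS litters in states 2, 3, 4 and 5, and the litters overlapped in states 0 and 1. The test was added after the values by state were seen, it rests on 2 litters per group, and the call was lost without DEX-1 (adjusted p = 0.0985) and without PBS-2 (adjusted p = 0.153).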

How the results depend on the processing

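Depth limits Tigit, Havcr2 and Lag3, and 2 litters per group limit every comparison of DEX with PBS. The alternatives re-use the same 4 litters, so their counts are not separate checks. Among them, naming the classes at resolution 1.0 returned the same ILC2-like cells as the main fit. Pdcd1 was higher in DEX in all 22 alternatives and called in 20, at log2 fold changes of 0.66 to 1.77. Cd27 was higher in 22 and called in 16, Cd28 in 21 and 8, Tigit in 18 and 3, and Icos in 22 and 1. Ctla4 and Klrg1 were called in none of 22 and 21. Outside state 3 edgeR called 122 genes and 0 receptors. In cells without any UMI of 7 T cell genes it called 4 genes and 0 receptors, on 59 to 62 cells per litter, and there Ctla4 turned to -0.039. Thinned cells gave 88 genes and 1 receptor, equal numbers of cells per state 150 and 1, DESeq2 121 and 1, and no filter on low genes 515 and 4. Without 1 litter the number of genes was 246 to 438. Deviations from the group mean, matched by replicate number, correlated at 0.0739. With 2 litters per group both pairs must give the same value, so it does not settle whether the numbers pair the litters. A fit with the litter number as a block called 588 genes and 4 receptors, adding Cd28 and Icos. Leaving out 1 litter gave 71 to 191 genes in state 0, 22 to 44 in state 1, 6 to 57 in state 2, 34 to 92 in state 4, 26 to 47 in state 5, 0 to 63 in basophil or mast-like cells, 52 to 146 for the difference between the classes and 8 to 27 for the difference among states, where a group of 1 litter is assumed to vary like the other. The difference in Pdcd1 between states 3 and 1 was then 2.42 to 3.75, and its adjusted p over any state 9.21e-05 to 0.153. Pdcd1 in the best match of state 3 at resolution 0.8 was 1.51. Mean Icos in state 4 was 361 CPM at that resolution and 371 CPM without the called genes. The difference in share of cells was 0 percentage points for Klrg1 at 4000 UMIs and for Havcr2 at 1000 UMIs. For Ctla4 with Cd27 the ratio of observed to expected cells was 1.56 in thinned cells, 1.25 in unthinned cells and 1.02 within state, and for Klrg1 with Icos 0.537, 0.919 and 0.948. The alternatives by state, outside state 3, with equal states and within state were chosen after seeing the data. The cause was not tested for any of these changes.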

Other observations

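In an unnamed cluster of 29 cells, led by Tox, Dach2 and Pde7b and with a median of 2366 UMIs per cell, Icos was found in 86.2% of cells, Cd28 in 17.2% and Pdcd1 in 17.2%. Its levels were not compared between groups, since no litter held enough of these cells.

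In the basophil or mast-like cluster led by Gzmb, Scin and Car1, Pdcd1 was at 29.5 CPM in DEX-1 and at 2.54 to 4.85 CPM in the other 3 litters, so most of the Pdcd1 UMIs of that class came from 1 litter.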
